A study of Mus musculus with 797 samples.

Results

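AiE0140h is an enhancer that was carried into the mouse brain by an adeno-associated virus (AAV) and drove H2B-SYFP2, a histone joined to a yellow fluorescent protein; nuclei in which the enhancer was active could therefore be sorted by their colour. The subject here is the glutamatergic, that is excitatory, nuclei labelled AiE0140h, set against glutamatergic nuclei labelled with other vectors in the same library set, AB-S40331. A nucleus was a member if it had at least 50000 reads on genes, at least 1000 genes with a read, at least 10 CPM (counts per 1e6 gene reads) of Slc17a7, which loads glutamate into the vesicles of cortical excitatory neurons, and under 10 CPM of Gad1 plus Gad2, the enzymes that make GABA. The rule gave 22 AiE0140h nuclei, of 24 in the set and 40 in the series, and 199 nuclei of 10 other vectors, 221 members of 797 nuclei in all. The other vectors were AiE0078h, AiE0387m, AiE0391h, AiE0401h, AiE0410m, AiE0445h_3xC2, AiE0447h, AiE0743m_3xC2, AiE0779m and hSyn1, the human synapsin promoter, with 10 to 31 nuclei each. A further 22 nuclei of 7 vectors passed the limits but came from vectors with fewer than 10 such nuclei.

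All mice were C57Bl/6J young adults that had received 5e11 vector genomes of their vector in PHP.eB, a capsid that crosses the blood-brain barrier, and nuclei were taken 3 to 4 weeks later. Both sides carry a vector and the reporter, and no mouse without a vector was among the samples. The labels name no animal, so each vector counts as 1 sample: no test was run between vectors, and a difference is set against the spread over the 10 other vectors. The nuclei are labelled striatum, a region whose principal neurons are GABAergic, and the members were chosen for an excitatory marker.

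Cortical excitatory neurons use glutamate as transmitter and are sorted by layer: Cux2 marks upper layers, Rorb layer IV, and Foxp2 and Tle4 the corticothalamic cells of the deepest layers. Their excitability is set by sodium and potassium channels, and their inhibition by GABA-A receptors, channels built of several subunits. Firing switches on the immediate early genes, such as Fos, Arc and the Egr family, within minutes, so these genes are read as a record of recent activity.

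Slc17a7 itself ran from 84.5 CPM through a median of 764 to 1958 CPM over the AiE0140h nuclei, and no AiE0140h nucleus had a read of Gad1 or Gad2. The nuclei were chosen by these values and by their reads and genes, so they are given as a description. The 2 AiE0140h nuclei left out had 0 CPM of Slc17a7 and of both Gad genes. Just inside the limit, the lowest member of any vector had 62.4 CPM, and just outside it the highest nucleus had 8.33 CPM. The highest Gad level inside was 9.17 CPM and the lowest outside 43.7 CPM. Other excitatory markers that the rule did not use were present. Nrgn, a calmodulin-binding postsynaptic protein, was read in 22 of 22 AiE0140h nuclei and in 197 of 199 others, and Mef2c, a transcription factor of cortical neurons, in 22 of 22 AiE0140h nuclei. Without Slc17a7, the 12 other genes of the glutamatergic list averaged 3.49 log2(CPM + 1) in AiE0140h and 2.96 to 3.41 in the other vectors. Without Gad1 and Gad2, the 14 other genes of the GABAergic list averaged 0.14 in AiE0140h and 0.09 to 0.33 in the others, and the list of spiny projection neurons, the principal neurons of the striatum, 1.13 against 0.86 to 1.13.

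AiE0140h nuclei were read deeply and showed many genes. Their reads on genes ran from 204300 to 437151 with a median of 345616, and the medians of the other vectors lay between 226512 and 326520. A median of 2950 genes had a read per AiE0140h nucleus, and the medians of the other vectors lay between 2354 and 2836. With every nucleus thinned to 100000 reads the median was 2738 for AiE0140h and 2227 to 2673 for the others, so the higher number of genes remained at equal depth. The index pairs that tell libraries apart were not shared within the set, but those of all 22 AiE0140h members, and of 113 of the 221 members, were also used in another set. No 2 members had identical counts. Mitochondrial genes held 0.0289% of the reads on average in AiE0140h and 0.00309 to 0.0393% in the others.

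**Figure D1:**
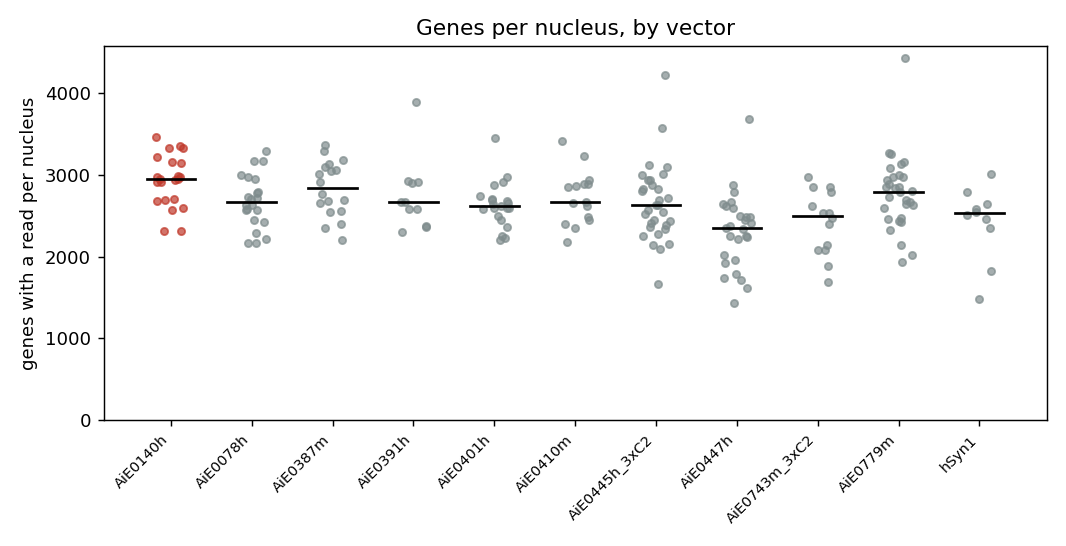
Genes with at least 1 read in each nucleus, by vector, with AiE0140h in red at the left and the other 10 vectors in grey. Each point is a nucleus and each bar the median of its vector. The AiE0140h median of 2950 lies above the other medians, which run from 2354 to 2836, while the nuclei of all vectors overlap.

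The layer makeup of AiE0140h did not stand apart. Each nucleus was put with the layer list of the highest mean. By this score, which gives ranges and not types, 50% of AiE0140h nuclei went with the upper-layer list (11 of 22, exact 95% interval 28.2 to 71.8) and a mean of 55.2% of the other vectors' nuclei did, with a range of 35.7 to 70%. The Rorb list led in 18.2% of AiE0140h nuclei (5.19 to 40.3) and in 19.9% of the others (6.45 to 31.8). The deep-layer list led in 31.8% of AiE0140h nuclei (13.9 to 54.9) and in 24.8% of the others (0 to 42.9). All 3 AiE0140h shares lay inside the range of the other vectors.

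A small set of AiE0140h nuclei carried genes of near-projecting neurons, a deep-layer class that sends only local axons and expresses Tshz2 and Vwc2l. The list of 8 such genes averaged 0.86 in AiE0140h and 0.05 to 0.38 in the other vectors, with a median of 0.14. At least 1 of the 8 genes was read in 8 of 22 AiE0140h nuclei (36.4%, 17.2 to 59.3), against 6.67 to 27.3% for the other vectors, and at least 2 in 4 of 22 (18.2%, 5.19 to 40.3), against 0 to 10%. Tshz2 was read in 5 of 22 AiE0140h nuclei and in 15 of 199 others, Lypd1 in 4 of 22 and 13 of 199, Rapgef3 in 5 of 22 and 4 of 199, and Vwc2l in 2 of 22 and 8 of 199. Sla2 was read only in AiE0140h nucleus 17, at 339 CPM, and Trhr only in nucleus 27, at 296 CPM. The remaining 2 genes, Slc17a8 and Tunar, had no read in AiE0140h. Of the 8 genes 6 were above the others' mean. Both AiE0140h nuclei with Vwc2l, at 714 and 2354 CPM, also had reads of Tshz2. The 4 nuclei with at least 2 of the genes differed in other layer markers. Nucleus 31 had Cux2 at 178 and Rorb at 592 CPM, and nucleus 34 Foxp2 at 808 and Tle4 at 177 CPM. Nucleus 26 had Tle4 at 661 CPM, and nucleus 27 had no read of Cux2, Rorb, Foxp2 or Tle4. The intervals of the AiE0140h shares overlap those of the other vectors, and none of the 8 genes was common enough to be among those compared below.

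Gene levels are means of log2(CPM + 1) over the nuclei of a vector, and a difference is the AiE0140h mean minus the mean of the other 10 vectors, each with equal weight. A gene was called higher or lower where the difference was at least 1 log2 unit and AiE0140h lay outside the range of all 10 other vectors. Of 4787 genes read in at least 25% of nuclei on either side, 643 were called higher in AiE0140h (13.4%) and 112 lower (2.34%). Most genes leaned the same way: 67.4% were above the others' mean and the median difference was 0.38 log2 units. With this median subtracted, 273 genes were called higher (5.7%) and 325 lower (6.79%), so the excess of higher over lower calls went with the general shift. AiE0140h had the highest level of the 11 vectors in 16.4% of the genes, and the other vectors in 2.24 to 15.7%, with AiE0391h next. A gene could pass the limit of 25% through 1 side alone, and was then read more often there by construction: 301 of the 643 genes called higher passed through AiE0140h only, and 71 of the 112 called lower through the other vectors only. Of the 3238 genes that passed on both sides, 342 were called higher (10.6%). Values below are not shifted unless stated, and counts of list members are to be read against the shares over all genes given here. Within 1 vector a nucleus often had no read of a gene that was abundant in another nucleus, and the SD over nuclei is wide for that reason.

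The gene furthest above was Cspg5, which encodes neuroglycan C, a membrane proteoglycan of neurons and glia (ENSMUSG00000032482, chromosome 9, 110243783 to 110262576, plus strand, mm10). It had a median of 240 CPM over the AiE0140h nuclei, with a range of 0 to 1333, and a mean level of 7.20 ± 2.87 (SD over 22 nuclei). The means of the other vectors were 2.64 at the lowest, 4.12 at the median and 5.05 at the highest, and the difference was 3.16 log2 units against an SD over vectors of 0.88. Reads were found in 20 of 22 AiE0140h nuclei (90.9%, exact interval 70.8 to 98.9) and in 36.4 to 63.6% of the nuclei of the other vectors. Summed over nuclei, AiE0140h had 378 CPM and the other vectors 86.2 to 385 CPM, so in summed reads the groups overlapped. The gap thus lay in how many nuclei had reads and less in the total.

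Gabra4, the alpha-4 subunit of GABA-A receptors (ENSMUSG00000029211, chromosome 5, 71569749 to 71658308, minus strand), had a mean of 6.23 ± 3.86 in AiE0140h nuclei. The other vectors lay between 2.60 and 3.76 with a median of 3.33, the narrowest spread among the leading genes (SD 0.35), and the difference was 2.92. It was read in 17 of 22 AiE0140h nuclei and in 33.3 to 47.6% of the others, and summed to 312 CPM in AiE0140h and 87.1 to 282 CPM in the others. Of the 13 listed GABA-A genes 11 were common enough to compare. Of these 8 were above the others' mean, where 67.4% of all genes were, and 2 were called higher, Gabra4 among them, where 13.4% of all genes were. None was called lower. Both counts are near the shares over all genes, with a median difference of 0.93 against 0.38 over all genes. The delta subunit gene Gabrd stood at 3.83 in AiE0140h against 1.60 to 4.57, inside the range. As a list, the 13 genes averaged 3.87 in AiE0140h and 2.82 to 3.53 in the other vectors. Their summed CPM, 2448 in AiE0140h and 1730 to 2808 in the others, lay inside the range.

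**Figure D2:**
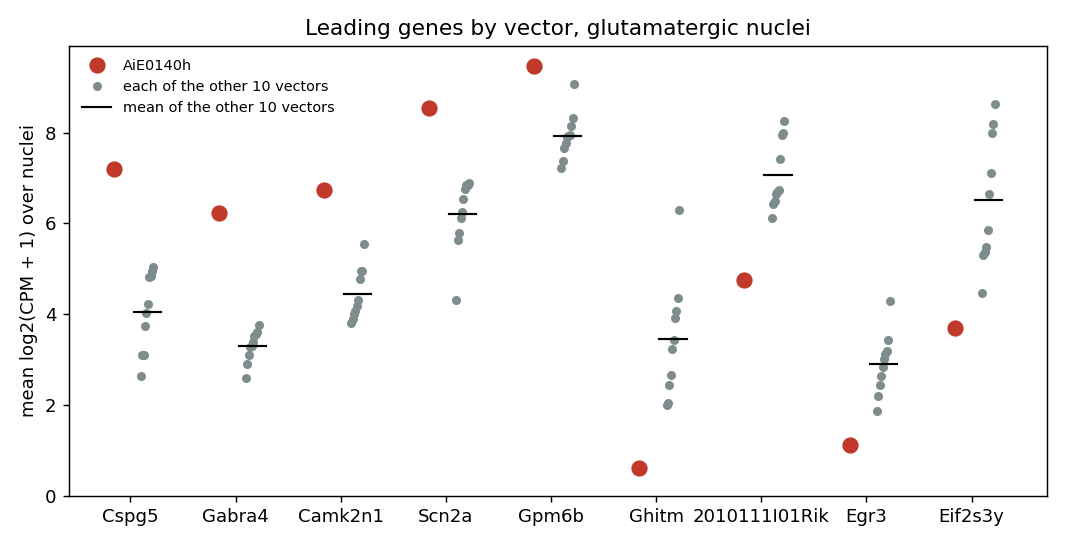
Mean log2(CPM + 1) over nuclei of 9 genes named in the text. For each gene the red point at the left is AiE0140h, the grey points at the right are the other 10 vectors and the bar is their mean. AiE0140h lies above every other vector for Cspg5, Gabra4, Camk2n1, Scn2a and Gpm6b and below every other vector for Ghitm, 2010111I01Rik, Egr3 and Eif2s3y.

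Channel and receptor genes of excitation gave few calls, at shares near or below the 13.4% over all genes except in a list of 3. Scn2a, the sodium channel of excitatory axons (ENSMUSG00000075318, chromosome 2, 65620771 to 65767447, plus strand), was read in 22 of 22 AiE0140h nuclei at 16.8 to 3201 CPM with a median of 429. Its mean was 8.54 ± 1.71 in AiE0140h and 4.32 to 6.90 in the others (median 6.39), a difference of 2.33, and it was read in 50 to 90% of the others' nuclei. Summed CPM were 653 in AiE0140h (635 to 672) and 229 to 514 in the others, so here the groups did not overlap on either scale. Cacnb4, a calcium channel subunit, was called higher at 5.93 against 1.18 to 5.87, close to the highest other vector. In the list of sodium, calcium and HCN channels 2 of 17 compared genes were called higher and none lower. The list's median difference was 0.16, against 0.38 over all genes. In the list of potassium channels 0 of 19 compared genes were called in either direction, with a median of -0.12. Among ionotropic glutamate receptors Gria4, an AMPA receptor subunit, was the 1 call of 11, at 7.65 in AiE0140h against 5.17 to 7.19. Grm5, the metabotropic receptor mGlu5, was the 1 call of 3 compared genes in its list, at 8.93 ± 1.67 against 6.08 to 8.39, with reads in 22 of 22 AiE0140h nuclei.

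Calcium signalling was represented by a kinase and an inhibitor of another. Camk1, a calcium/calmodulin-dependent kinase, averaged 6.46 ± 3.83 in AiE0140h and 2.01 to 4.66 in the others, a difference of 2.85. Camk2n1, an inhibitor of CaMKII (ENSMUSG00000046447, chromosome 4, 138454314 to 138460123, plus strand), averaged 6.73 ± 3.05 against 3.80 to 5.55, a difference of 2.28. Camk2n1 was the 1 gene called of 20 compared in the list of calcium/calmodulin kinases and plasticity genes. The list's median difference was 0.20, against 0.38 over all genes. Camk1 was named for its size and not as a list member.

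At the synapse, Syn2, which encodes the vesicle protein synapsin II, averaged 5.89 ± 3.92 in AiE0140h and 1.93 to 4.48 in the others, a difference of 2.80. Pclo, the active zone protein piccolo, was called higher at 5.68 against 2.67 to 4.83. Vamp2, the vesicle SNARE synaptobrevin 2, was called lower at 4.26 against 4.60 to 6.86. These were the 3 calls among 21 compared release genes, where 13.4% of all genes were called higher and 2.34% lower. Their median difference was 0.11, against 0.38 over all genes. Of 19 compared adhesion genes 16 were above the others' mean, where 67.4% of all genes were, with a median difference of 0.35 against 0.38 over all genes. Nlgn1, a neuroligin, was the 1 call, at 5.34 against 1.77 to 4.94. Of 10 compared cadherin and protocadherin genes 2 were called higher and 1 lower, against 13.4% and 2.34% of all genes. Cdh8 and Cdh11, classical cadherins, were higher by 1.16 and 1.76, and the protocadherin Pcdh17 was lower by 1.0. Pcdh17 passed the limit of 25% through the other vectors only. In axon guidance the calls were Ephb6 (difference 1.66), the netrin receptor Unc5c (1.24) and Ntng1, which encodes netrin-G1 (1.19), 3 of 12 compared genes, against 13.4% of all genes. Unc5c and Ntng1 passed the limit of 25% through AiE0140h only.

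Other genes among the 15 furthest above are given with their known roles. Nrd1, the metallopeptidase nardilysin, averaged 7.25 ± 3.31 in AiE0140h and 3.26 to 5.88 in the others. Trip12, an E3 ubiquitin ligase, averaged 6.31 ± 3.36 against 2.48 to 5.15, and Armc8, part of another ubiquitin ligase complex, 5.70 ± 4.13 against 1.65 to 5.20. Tsc1, which encodes hamartin, a brake on the growth kinase mTORC1, averaged 5.55 ± 3.91 against 1.81 to 4.24, a difference of 2.69. Rheb, the GTPase that activates mTORC1, was among the genes furthest below, at 2.13 ± 3.59 in AiE0140h against 2.47 to 6.01. Also among the 15 genes furthest above were Spns1, Mga, Nek1, Zbtb38, Gm12905 and Rlf, with differences of 2.98 for Spns1 down to 2.7 for Rlf. Spns1, Gm12905 and Rlf passed the limit of 25% through AiE0140h only.

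Genes that are better known from glia were among the calls. Gpm6b, a membrane glycoprotein of neurons and glia (ENSMUSG00000031342, chromosome X, 166238911 to 166388988, plus strand), was read in 22 of 22 AiE0140h nuclei at 116 to 1895 CPM with a median of 716. Its mean was 9.47 ± 0.91 in AiE0140h, the narrowest spread over nuclei among the 58 genes named by rule, and 7.22 to 9.08 in the others (median 7.92). The difference was 1.54, and summed CPM overlapped, with 818 in AiE0140h and 393 to 936 in the others. Atp1b2, a sodium pump subunit on the astrocyte list, was called higher at 2.35 against 0 to 2.20, and Mbp, which encodes myelin basic protein, at 3.27 against 0.76 to 2.88. Both passed the limit of 25% through AiE0140h only. The whole astrocyte list averaged 1.58 in AiE0140h and 0.99 to 1.41 in the others, and 4 of its 16 genes were common enough to compare. Its defining members Aqp4, Gja1, Plpp3 and Sox9 had no read in AiE0140h nuclei. Slc1a3 was read in 1 of 22. Gfap, Aldh1l1 and Fgfr3 were read in 2 nuclei each, at means of 0.71, 0.85 and 0.49 against at most 0.59, 0.54 and 0.24. The oligodendrocyte list averaged 0.50 in AiE0140h and 0.27 to 0.63 in the others, with 8 of its 11 genes at 0, Mog, Mag and Opalin among them. With nuclei that had reads of 2 or more of 6 astrocyte genes left out, all 22 AiE0140h nuclei were kept and 647 genes were called higher. The AiE0140h means could not change in this setting.

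The genes furthest below were fewer and sparser. Ghitm, an inner mitochondrial membrane protein (ENSMUSG00000041028, chromosome 14, 37120092 to 37135272, minus strand), was read in 2 of 22 AiE0140h nuclei (9.09%, 1.12 to 29.2) and in 77 of 199 others. Its mean was 0.62 ± 2.02 in AiE0140h and 2.0 to 6.29 in the others (median 3.33), a difference of -2.83. Summed CPM were 14.1 in AiE0140h (11.5 to 17.1) and 94.0 to 434 in the others, with no overlap. The gene 2010111I01Rik was read in 11 of 22 AiE0140h nuclei and in 151 of 199 others, at a mean of 4.75 ± 4.89 against 6.11 to 8.26, a difference of -2.32. The proteasome ATPase gene Psmc2 stood at 1.21 against 1.99 to 5.52, the proton pump subunit gene Atp6v0e2 at 1.33 against 1.60 to 5.42, and Gpr22, an orphan receptor gene, at 2.51 against 2.74 to 6.15. With Rheb and Eif2s3y described elsewhere, the remaining 8 of the 15 furthest below were 2210016L21Rik, Os9, Ndufaf7, Lmo7, Dmtf1, Stk25, Cdc23 and Slitrk5, with differences between -1.93 and -1.80.

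Calls in the other lists were scattered, and are to be read against 13.4% called higher and 2.34% called lower over all genes. Among 11 compared clock genes, Clock, the transcription factor that drives the daily cycle, and Rora, a nuclear receptor of the same loop, were called higher, at 6.11 against 3.05 to 5.49 and 3.67 against 0 to 3.12, while the list's median difference was -0.11. Plk2, an activity-linked kinase, and Bax, a cell death gene, were called higher among 5 compared p53 response genes, at 7.76 against 3.34 to 7.73 and 5.09 against 0.65 to 5.01, each close to the highest other vector. Xbp1, a factor of the unfolded protein response, was called lower at 3.12 against 3.43 to 5.62. Among layer and region markers the calls were Pou3f2 (1.62 against 0 to 1.43), Tox (1.97 against 0 to 1.96) and the transcription factor gene Meis2 (3.87 against 1.16 to 3.25), all higher. Pou3f2 and Tox, as well as Rora, passed the limit of 25% through AiE0140h only. Tubb3, a neuronal tubulin, was called higher at 2.91 against 1.25 to 2.41, and the ribosomal protein gene Rpl3 lower at 1.45 against 2.18 to 5.61. Tubb3 passed the limit through AiE0140h only and Rpl3 through the other vectors only. Gm26917, a long noncoding RNA, was the 1 call of 10 in its list, at 8.35 against 5.60 to 8.18. The interferon response list averaged 0.24 in AiE0140h and 0.27 to 0.39 in the others, with 13 of its 17 measured genes at 0 in AiE0140h.

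Immediate early genes had a low mean as a list, with 1 member called. The 24 genes averaged 1.67 ± 1.12 in AiE0140h nuclei and 1.81 at the lowest, 1.99 at the median and 3.08 at the highest of the other vectors, so AiE0140h lay just below the range. In summed CPM it lay inside the range, with 2244 in AiE0140h and 2219 to 5517 in the others. A median of 5 of the 24 genes had a read per AiE0140h nucleus, against 5.5 to 9 in the other vectors. Among the 11 genes compared 2 were above the others' mean and 9 below, with a median difference of -0.94, against 0.38 over all genes. Egr3, a zinc finger transcription factor (ENSMUSG00000033730, chromosome 14, 70077203 to 70082614, plus strand), was the gene called lower, at 1.12 ± 2.29 in AiE0140h against 1.86 to 4.30 (median 2.92), a difference of -1.78. It was read in 6 of 22 AiE0140h nuclei and 102 of 199 others. In 3 of these 6 AiE0140h nuclei its level was that of 1 read, at 2.91 to 3.95 CPM.

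Other members were below the others' mean and inside their range, so they were not called. Egr1 stood at 3.63 in AiE0140h against 3.46 to 8.90 in the others, and Arc, which encodes a postsynaptic protein, at 4.39 against 4.16 to 7.53. Fos stood at 1.63 against 1.10 to 4.67, and Junb at 2.32 against 1.89 to 6.60. Dusp6, a phosphatase of the MAP kinase pathway, went the other way at 3.87 against 1.37 to 4.47. The high ends of Egr1, Fos and Junb all came from AiE0078h, and AiE0078h and hSyn1 had the highest list means, 2.97 and 3.08. The other 8 vectors lay between 1.81 and 2.21.

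**Figure D3:**
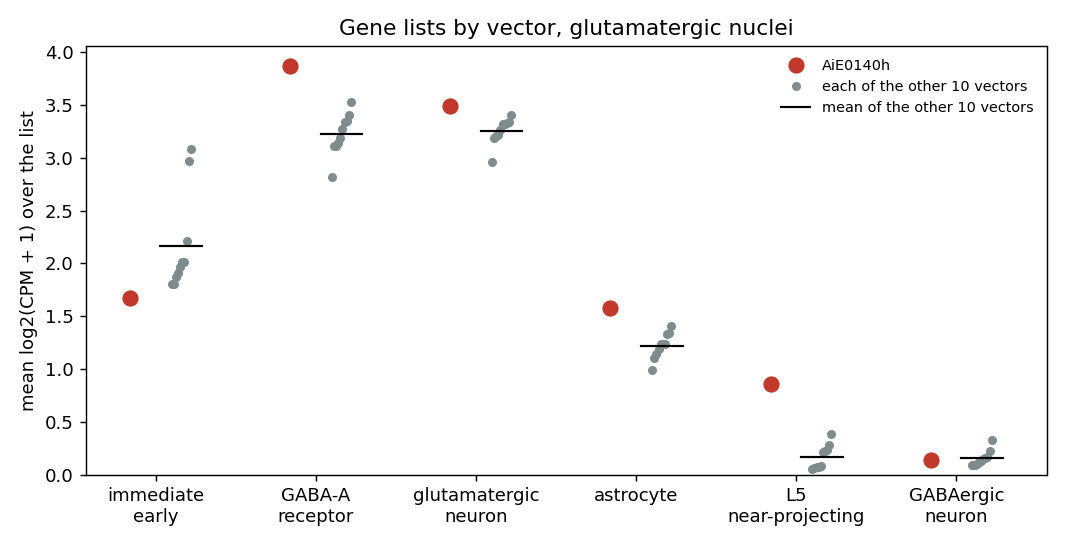
Mean log2(CPM + 1) over 6 gene lists, with AiE0140h in red at the left of each list, the other 10 vectors in grey at the right and their mean as a bar. Slc17a7, Gad1 and Gad2, by which the nuclei were chosen, are left out of the glutamatergic and GABAergic lists. AiE0140h lies below the other vectors for the immediate early list (1.67 against 1.81 to 3.08), above them for the GABA-A receptor, glutamatergic, astrocyte and near-projecting lists, and inside their range for the GABAergic list (0.14 against 0.09 to 0.33).

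Promoter sequences are shown for 3 members of the immediate early list because CREB, the factor that couples calcium entry to these genes, binds the cAMP response element TGACGTCA. Windows of 18 of the 24 list genes were searched, taken from the RefSeq promoter table (GRCm38.p6). A window was the 250 bases before an annotated start, searched on both strands, and the full element reads the same on either strand. The other list genes were left out of the search, which does not show that they lack an entry. Egr1 is among them, and so is Egr3, the list gene called lower. The list shares below therefore cover these 18 genes only, while the comparison is with all windows in the table. A gene can have several starts, and the 18 genes had 29 windows. Windows of 1 gene can overlap, as some of Egr2 do, and each was counted. The full element was found in 2 of the 29 windows (6.9%), those of Btg2 and Dusp1, and in 1.55% of all 32851 windows in the table. The shorter site TGACG, or CGTCA on the opposite strand, which is also contained in the full element, was found in 16 of the 29 windows (55.2%) and in 17.8% of all windows. Fos carried it 2 times. Capitals mark the full element in Btg2 and Dusp1 and the shorter site in Fos.
Btg2 (chr1:134079156-134079405, minus strand): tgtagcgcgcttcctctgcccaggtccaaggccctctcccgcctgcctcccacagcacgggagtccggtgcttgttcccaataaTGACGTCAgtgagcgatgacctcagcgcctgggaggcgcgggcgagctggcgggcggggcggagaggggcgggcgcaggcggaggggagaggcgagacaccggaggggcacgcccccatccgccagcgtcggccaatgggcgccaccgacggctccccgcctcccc
Dusp1 (chr17:26508473-26508722, minus strand): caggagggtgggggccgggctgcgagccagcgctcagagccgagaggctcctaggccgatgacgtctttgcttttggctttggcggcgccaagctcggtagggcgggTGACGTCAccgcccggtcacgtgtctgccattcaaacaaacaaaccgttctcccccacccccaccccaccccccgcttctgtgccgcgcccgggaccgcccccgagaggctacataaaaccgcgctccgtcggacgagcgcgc
Fos (chr12:85473640-85473889, plus strand): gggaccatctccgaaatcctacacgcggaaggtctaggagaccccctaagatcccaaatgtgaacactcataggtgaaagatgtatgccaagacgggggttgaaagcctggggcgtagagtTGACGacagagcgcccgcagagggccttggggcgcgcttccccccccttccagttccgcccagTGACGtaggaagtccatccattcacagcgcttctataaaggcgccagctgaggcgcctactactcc
Btg2, an antiproliferative gene, stood at 0.96 in AiE0140h against 0 to 2.80 in the other vectors, and Dusp1, a MAP kinase phosphatase, at 2.64 against 1.71 to 4.52. Dusp1 was not called, and Btg2 was not common enough to be compared, so it could not be called. A match in a window is a description of its letters.

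Sex-linked genes split the AiE0140h nuclei, which came from at least 1 female and 1 male. Xist, the RNA that coats the inactive X chromosome of females, was read in 8 of 22 AiE0140h nuclei that had no read of the Y-linked genes Ddx3y, Eif2s3y, Kdm5d and Uty. Y-linked genes were read in 9 nuclei without Xist, 0 nuclei had both and 5 had neither. The classes followed the numbers in the labels: all nuclei with Xist were numbered 21 to 29, and all with Y-linked reads 30 to 40. Xist in these 8 nuclei ran from 21.4 to 1455 CPM. Nuclei with Xist alone made up 36.4% of AiE0140h (17.2 to 59.3), and 0 to 46.7% of the other vectors, where 24 such nuclei were found in 4 of the 10 and 158 nuclei had Y-linked reads alone. Of all 221 members 2 had reads of both kinds. The share of nuclei with Y-linked reads alone was 40.9% in AiE0140h and 46.7 to 100% in the other vectors.

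**Figure D4:**
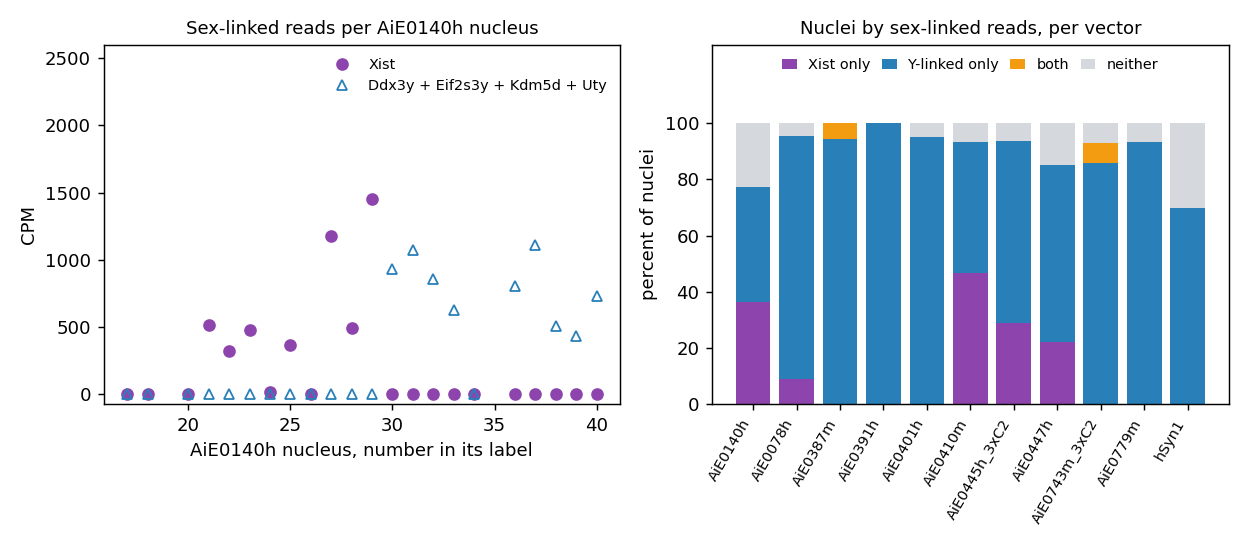
Left, CPM of Xist (filled circles) and of 4 Y-linked genes summed (open triangles) in each AiE0140h nucleus, by the number in its label. Right, percent of nuclei with reads of Xist only, Y-linked genes only, both or neither, by vector, with AiE0140h first. Xist reads fall in nuclei 21 to 29 and Y-linked reads in nuclei 30 to 40.

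Eif2s3y, a Y-linked translation factor gene (ENSMUSG00000069049, chromosome Y, 1010543 to 1028847, plus strand), was called lower in AiE0140h, at 3.70 ± 4.57 against 4.47 to 8.64, a difference of -2.81. In the 9 AiE0140h nuclei with Y-linked reads alone it was read in all 9, at a mean of 9.04. The other classes have no read of it by their definition. With nuclei of Y-linked reads alone on both sides the difference was 1.15, against 12 other vectors with at least 5 such nuclei each. These nuclei were chosen partly by their reads of Eif2s3y itself, so the values are a description. Of the 643 genes called higher, 572 were above the others' mean both in the 8 nuclei with Xist and in the 9 with Y-linked reads, and 307 were above the others' range in both. Of all 4787 genes 41.2% and 8.77% were. Of the 112 called lower, 93 were below the others' mean and 35 below their range in both, and of all genes 15.3% and 1.4% were. The calls were made on the mean over all 22 nuclei, which include these 17, so the counts describe how they are spread and are no independent support. Cspg5 stood at 5.98 in the nuclei with Xist and 7.12 in those with Y-linked reads, Scn2a at 8.89 and 7.84, and Gpm6b at 9.45 and 9.46. Ghitm had no read in either. Vamp2 differed between them, with 6.75 in the nuclei with Xist and 2.61 in those with Y-linked reads. These subsets were formed after seeing the data, and sex, animal and preparation cannot be told apart.

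The same genes were then read in AiE0140h nuclei of the other 2 library sets, which played no part in the calls. The same limits gave 9 AiE0140h nuclei there, 2 of set AB-S40317 and 7 of set AB-S40330, and 124 nuclei of 12 other vectors with at least 3 nuclei each. Y-linked reads were found in 8 of these 9 nuclei and Xist in 0. Only 4 other vectors had at least 3 nuclei in AB-S40330, so AiE0140h and the other vectors differ in their mix of sets. The sets are also unlike: both AB-S40317 nuclei had 6565 and 7256 genes with a read, and the 7 others 1988 to 3024. The median difference of the 4787 genes was -0.31 there, against 0.38 in the set described above.

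Most of the calls did not carry over. Of the 643 genes called higher, 234 were above the other vectors in the other sets (36.4%), and of all 4787 genes 37.8% were. Of the 112 called lower, 73 were below (65.2%), against 62.2% of all genes. Also called higher there were 18 of the 643 (2.8%, against 2.47% of all genes), and 41 were called lower (6.38%, against 5.74% of all genes). Also called lower there were 6 of the 112 (5.36%, against 5.74% of all genes). In set AB-S40330 alone, 42.8% of the genes called higher were above the 4 other vectors, against 44.9% of all genes. The shares are near those of all genes in each case.

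**Figure D5:**
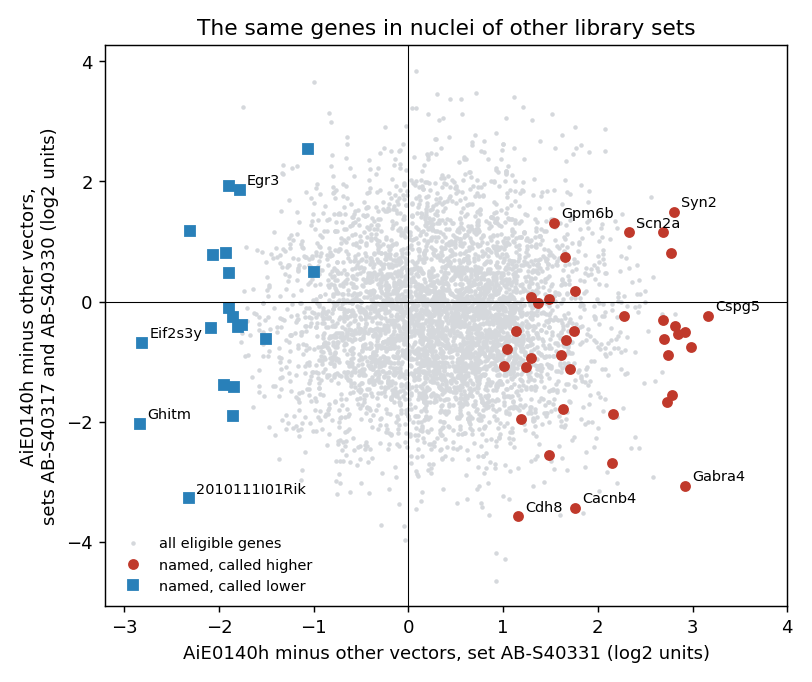
Difference of each gene between AiE0140h and the other vectors in set AB-S40331 (horizontal, log2 units) and in sets AB-S40317 and AB-S40330 (vertical, log2 units). Grey points are all 4787 genes compared, red circles the 38 named genes called higher and blue squares the 20 named genes called lower. Of the red circles 9 lie above 0 on the vertical axis, and of the blue squares 12 lie below it.

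Of the 58 genes named by rule, 21 had the same sign in the other sets, 9 of 38 higher and 12 of 20 lower. A difference of at least 1 log2 unit in the same direction was found for 9 genes, chosen here for that property: Syn2 (1.49), Tsc1 (1.15), Gpm6b (1.31) and Scn2a (1.15) above, and Ghitm (-2.04), 2010111I01Rik (-3.28), Gpr22 (-1.39), Stk25 (-1.91) and Cdc23 (-1.43) below. Of these, Ghitm, Stk25 and Cdc23 had passed the limit of 25% in the main set through the other vectors only. In set AB-S40330 alone, which holds 7 of the 9 nuclei, Gpr22 had the opposite sign, with a difference of 0.29, and the other 8 genes kept theirs. With both other sets pooled, Gpm6b and 2010111I01Rik were also outside the range of all other vectors. Gpm6b was read in 9 of 9 AiE0140h nuclei of the other sets, at a mean of 9.56 against 7.04 to 9.39, and 2010111I01Rik in 4 of 9, at 2.51 against 3.17 to 8.47. Scn2a was read in 9 of 9, at 8.73 against 5.60 to 9.58. Gabra4 went the opposite way, with reads in 2 of 9 AiE0140h nuclei and a mean of 1.42 against 1.30 to 7.34, a difference of -3.07. The GABA-A list followed it with a median difference of -0.82. The immediate early list had a median of -0.40 there, and Egr3 a difference of 1.86. None of the 8 near-projecting genes was above the other vectors there, with differences of -0.33 to 0.00.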

How the data were processed

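Single flow-sorted nuclei were profiled with SMART-Seq v4 and Nextera XT, per the labels' protocols. The authors deposited unnormalised counts of reads for each gene in each nucleus. There were no molecular identifiers, and PCR copies are counted more than 1 time. STAR 2.7.2a and mm10 are named in the submitters' processing notes; the counter, its annotation, strand setting and treatment of introns are not given in these sources, so overlapping and antisense genes cannot be told apart. Of 2501 columns 797 matched a sample by library name and 1704 were not used here. Of 32285 rows 32158 had a symbol, and rows without one held 0.0931% of reads and stayed out of the comparisons. Gene positions are from GENCODE M21.

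Counts were scaled to CPM and log2(CPM + 1) was averaged per vector (Python 3.11.15, numpy 2.4.6, scipy 1.17.1). Share intervals are exact Clopper-Pearson and intervals of summed CPM exact Poisson, both 95% and covering counting error only. No p-value was computed. The 15 largest differences in each direction among called genes, and up to 6 called genes per list, are named, except some that are not reported here. The members and lists were chosen with earlier results of these data known. The steps were tested on simulated data. Thinning to 100000 reads used seed 0. Each library held 1 sorted nucleus, and doublets were not called.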

Additional observations from a re-analysis of the deposited data

Results flagged for a closer look

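For 4 of the named genes AiE0140h lay above all other vectors in the main library set and below all of them in the other 2 sets, at least 1 log2 unit from the mean of the other vectors each time. The difference between the sets was not tested. Cdh8, a cadherin, had a difference of 1.16 in the main set and -3.58 in the others, Cacnb4, a calcium channel subunit, 1.76 and -3.44, Plk2, a kinase, 2.15 and -2.69, and Mga, a transcription factor, 2.78 and -1.56. The other sets held 9 AiE0140h nuclei, in which these genes were read in 1, 3, 4 and 3 nuclei in the same order. The gaps to the nearest other vector were small in places: in the main set Plk2 stood at 7.76 against a highest other of 7.73, and in the other sets Mga stood at 2.52 against a lowest other of 2.82. In set AB-S40330 alone, with 7 of the 9 nuclei, Mga had a difference of -0.01, so the reversal was not seen there, and the other 3 genes had -3.85, -2.60 and -3.21 for Cdh8, Cacnb4 and Plk2.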

How the results depend on the processing

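The labels give no animals, so the values carry no replicate check, and the numbers in the labels count nuclei within a vector. No paired analysis was possible because no test was run and these numbers tie no nucleus of 1 vector to a nucleus of another. Depth limits each nucleus: a gene without a read is not shown to be absent.

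The main counts were 643 genes called higher and 112 lower in AiE0140h, of 4787 compared. The number of genes compared changes with some settings, and is given where it changed most. Leaving out each other vector in turn gave 640 to 723 higher and 115 to 147 lower, an immediate early list difference of -0.53 to -0.39 around the main -0.49, and a GABA-A receptor list difference of 0.60 to 0.68 around the main 0.64. A pseudocount of 10 gave 214 higher and 28 lower and a GABA-A difference of 0.36. Summed CPM gave 340 higher. Of the 643 and 112 genes, 208 and 26 were also called with the pseudocount of 10, and 235 and 57 with summed CPM, where 20 and 27 of the 58 named genes moved by more than the spread between vectors. Other vectors with at least 15 nuclei gave 170 lower. Genes read in at least 50% of nuclei gave 327 higher and 27 lower, of only 1744 compared. Thinning, equal weight per nucleus, other vectors with at least 5 nuclei, an Slc17a7 limit of 100 CPM, the AiE0140h layer makeup, leaving out nuclei with astrocyte reads and no filter on detection kept both counts within 1.5 times. The astrocyte setting kept all 22 AiE0140h nuclei, so it could not change their means. Without the filter on detection 32142 genes were compared.

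Added after seeing the data were the next settings. With the median difference subtracted, 273 genes were higher and 325 lower, and the GABA-A difference was 0.26. AiE0140h nuclei with Xist reads only gave 1801 and 413 genes and 0.22, those with Y-linked reads only 1394 and 315 genes and 1.16, and nuclei with Y-linked reads only in every vector 965 and 224 genes and 1.23. Those settings hold 8, 9 and 9 AiE0140h nuclei and compared 6217, 4873 and 4927 genes, so their counts are not parts of the same total as the main counts. The last of them set AiE0140h against 12 other vectors with at least 5 such nuclei each. Leaving out nuclei with near-projecting reads kept both counts within 1.5 times. Vamp2 turned to 0.99 with Xist nuclei only. Eif2s3y turned to 2.53 and 1.15 in the Y-linked settings, whose nuclei were chosen partly by reads of Eif2s3y.

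The other library sets gave 293 genes higher and 347 lower, of 7045 compared there, and a GABA-A difference of -0.65. Of the 58 named genes 37 had the opposite sign there; the cause was not tested. Their differences, in log2 units, were Cspg5 -0.24, Spns1 -0.76, Armc8 -0.51, Gabra4 -3.07, Camk1 -0.54, Nrd1 -0.41, Mga -1.56, Zbtb38 -0.89, Gm12905 -1.68, Rlf -0.62, Trip12 -0.31, Psmc2 1.18, Rheb 0.77, 2210016L21Rik 0.81, Ndufaf7 0.47, Lmo7 1.92, Pou3f2 -0.79, Tox -1.07, Atp1b2 -0.03, Egr3 1.86, Rora -1.87, Clock -0.49, Plk2 -2.69, Bax -1.79, Xbp1 2.54, Gria4 -0.89, Cacnb4 -3.44, Pclo -1.13, Nlgn1 -2.55, Cdh8 -3.58, Pcdh17 0.49, Ephb6 -0.64, Unc5c -1.09, Ntng1 -1.95, Camk2n1 -0.24, Gm26917 -0.94, Tubb3 -0.49. These values pool sets that AiE0140h and the other vectors hold in unlike mix. In set AB-S40330 alone, Zbtb38 (0.60), Trip12 (0.45), Clock (0.65), Gria4 (0.30) and 2210016L21Rik (-0.09) had the sign of the main set. The rest of the 37 genes had the opposite sign there too.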

Other observations

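Slc17a6, the second vesicular glutamate transporter, which is high in the thalamus and lower in cortex, was read in 1 of 22 AiE0140h nuclei at 13.8 CPM and in 23 of 199 nuclei of the other vectors. Its mean level was 0.18 in AiE0140h and 0.57 to 1.53 in the others, and summed CPM were 0.686 in AiE0140h (0.223 to 1.60) and 9.89 to 124 in the others. In the other library sets it had no read in the 9 AiE0140h nuclei and a mean of 1.36 in the other vectors, whose range began at 0. The gene was too sparse to be among those compared and was chosen after its values were seen.

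Nptx2, a secreted pentraxin on the immediate early list, was read in 1 of 22 AiE0140h nuclei, at a mean of 0.30 against 0.63 to 4.75 in the other vectors. It too was not common enough to be compared.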
